A study of Arabidopsis thaliana with 12 samples.

Results

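The genes described here are those that were on in the Arabidopsis thaliana accession C24 and off in the accession Col, and their level in the 2 reciprocal hybrids was followed as a share of the C24 level. A gene was taken when the mean of the 3 C24 libraries was at least 2 RPKM (mapped reads scaled to 1 kb of gene length and to 1000000 reads in the library) and the mean of the 3 Col libraries was below 0.1 RPKM. Among 32992 identifiers that occur once in the deposited tables, 54 met both thresholds, 2 of these were left out by the rule, and 52 were kept. They made up 0.330% of the 15773 identifiers that reached 2 RPKM in C24. Because the genes were chosen by their Col and C24 values, the difference between the parents is given as a description and was not tested for them. No hybrid value entered the choice.

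The study sequenced polyadenylated RNA from seedling shoots at 14 days, with 8 h of light per day at 22 °C followed by 16 h of dark at 18 °C. Its stated subject is alternative splicing in the parents and its inheritance, whereas the values used here are 1 level per gene and library. The 4 groups were the wild-type accessions Col and C24 and the hybrids of Col with C24 labelled Col/C24 and C24/Col, with 3 replicates each. Which parent served as the mother, and whether a library came from 1 plant or from pooled plants, is not given in the sources used here.

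Accessions of Arabidopsis are inbred lines that differ by lost, duplicated, rearranged and silenced genes as well as by single bases, and tandem gene families such as receptor-like kinases, F-box genes and disease resistance genes are known for such differences. The nucleus of a first-generation hybrid carries 1 genome copy from each parent, so a gene that only 1 parent expresses sits at the mid-parent level when its expression is additive. For a gene that is off in Col this level is 50% of the C24 level. The reference genome was built from Col, so reads of C24 were placed on the Col sequence, and each gene described here exists in the Col reference.

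The Col reference sequence is shown for the 250 bases before the annotated start of 4 genes, because these stretches belong to the parent in which the genes were off. AT2G05642 had the highest C24 level, AT5G53700 was the fourth highest, AT4G19430 had the lowest hybrid share among genes of at least 5 RPKM in C24 and AT5G24240 had one of the 4 highest. All are given 5′ to 3′ in the direction of the gene, from the RefSeq build TAIR10.1, with capitals marking TATAAA on either strand. The windows are chr2:2101168-2101417 (minus strand) for AT2G05642, chr5:21800893-21801142 (plus strand) for AT5G53700, chr4:10599183-10599432 (minus strand) for AT4G19430 and chr5:8234151-8234400 (minus strand) for AT5G24240. None of these windows overlaps another annotated gene.
AT2G05642: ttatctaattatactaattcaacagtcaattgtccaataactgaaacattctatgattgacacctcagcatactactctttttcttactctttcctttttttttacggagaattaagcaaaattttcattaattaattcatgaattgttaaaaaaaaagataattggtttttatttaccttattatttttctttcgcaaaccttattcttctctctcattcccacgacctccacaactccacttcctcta
AT5G53700: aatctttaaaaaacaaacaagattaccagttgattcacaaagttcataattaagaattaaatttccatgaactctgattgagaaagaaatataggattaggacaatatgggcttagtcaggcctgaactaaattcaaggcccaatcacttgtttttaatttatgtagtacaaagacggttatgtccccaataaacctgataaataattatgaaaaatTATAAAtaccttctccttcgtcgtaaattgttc
AT4G19430: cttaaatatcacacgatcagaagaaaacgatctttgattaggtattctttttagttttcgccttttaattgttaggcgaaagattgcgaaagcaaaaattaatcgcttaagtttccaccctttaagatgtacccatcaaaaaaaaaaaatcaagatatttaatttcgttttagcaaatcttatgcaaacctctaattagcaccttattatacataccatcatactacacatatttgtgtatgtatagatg
AT5G24240: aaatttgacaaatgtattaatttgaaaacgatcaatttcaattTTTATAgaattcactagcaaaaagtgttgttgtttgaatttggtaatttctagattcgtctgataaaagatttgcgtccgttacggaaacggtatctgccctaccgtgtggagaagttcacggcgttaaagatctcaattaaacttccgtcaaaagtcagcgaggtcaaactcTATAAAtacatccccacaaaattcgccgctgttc
In AT5G53700 and AT5G24240 the last TATAAA on the gene's own strand begins 33 and 34 bases before the annotated start, and AT5G24240 has another one on the opposite strand. The other pair of windows holds no such match. Over all members 22 of 52 windows (42.3%) hold TATAAA on either strand, against 45.9% of 32247 windows of the same length. The palindrome CACGTG, the core of the G-box, is present in 1 of 52 windows (1.92%), against 5.87% of all. These are letter matches in the reference sequence of Col and not measured sites.

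Each library was estimated to hold 15.6 to 26.9 M reads (M being 1000000) from the spacing of its lowest values, so 3 reads on 1500 bp of gene amount to between 0.0744 and 0.128 RPKM, counting error alone. The leaf gene RBCS1A stood at 10260 to 14207 RPKM and the leaf genes RBCS3B, LHCA3 and CA1 at 1978 RPKM or more. The root genes PHT1;1, NRT2.1, IRT1 and CASP1 did not exceed 0.66 RPKM, and the root gene PYK10 stood at 70.1 to 112.8 RPKM. The flower genes AP3, PI and AG did not exceed 0.52 RPKM, SEP3 stood at 1.2 to 3.54 RPKM, and the seed genes CRU3, CRA1, OLEO1 and EM6 reached 77.8, 50.4, 9.22 and 0.94 RPKM in hybrid libraries, with means of at most 0.283 RPKM in either parent. The part of the seed genes in the hybrid values was not tested. Ribosomal RNA genes took more than 2% of the summed values in 4 libraries, which were Col replicates 1 and 2 and Col/C24 replicates 1 and 3, and 0.231% to 1.22% in the others. An exact 0 in these files can be a failed assignment. The light-harvesting gene CAB1 (AT1G29930) is listed at 0 in all 12 libraries while its copy AT1G29910, whose coding sequence is 96.4% identical, reaches 11845 RPKM. A Col value of 0 is therefore written as listed at 0, and no fold against Col is given.

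In C24 the members ranged from 2.04 to 48.66 RPKM, with a median of 3.99 RPKM. At least 10 RPKM was reached by 9 members and at least 5 RPKM by 24, while 18 lay below 3 RPKM. In 38 of 52 members each C24 library was at or above 2 RPKM. In Col 21 members were listed at 0 in all 3 libraries and 15 more in exactly 2, and the highest single Col value was 0.27 RPKM. Summed over the members, RPKM was 1.63, 0.62 and 0.71 in the Col libraries and 409.84, 373.06 and 393.74 in the C24 libraries. The hybrid sums were 189.58, 172.38 and 164.80 in Col/C24 and 189.04, 191.03 and 185.14 in C24/Col. Every hybrid sum thus lay between the parents, apart from both. In whole shoots, fewer cells that express a gene and less RNA per cell cannot be told apart.

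**Figure D1:**
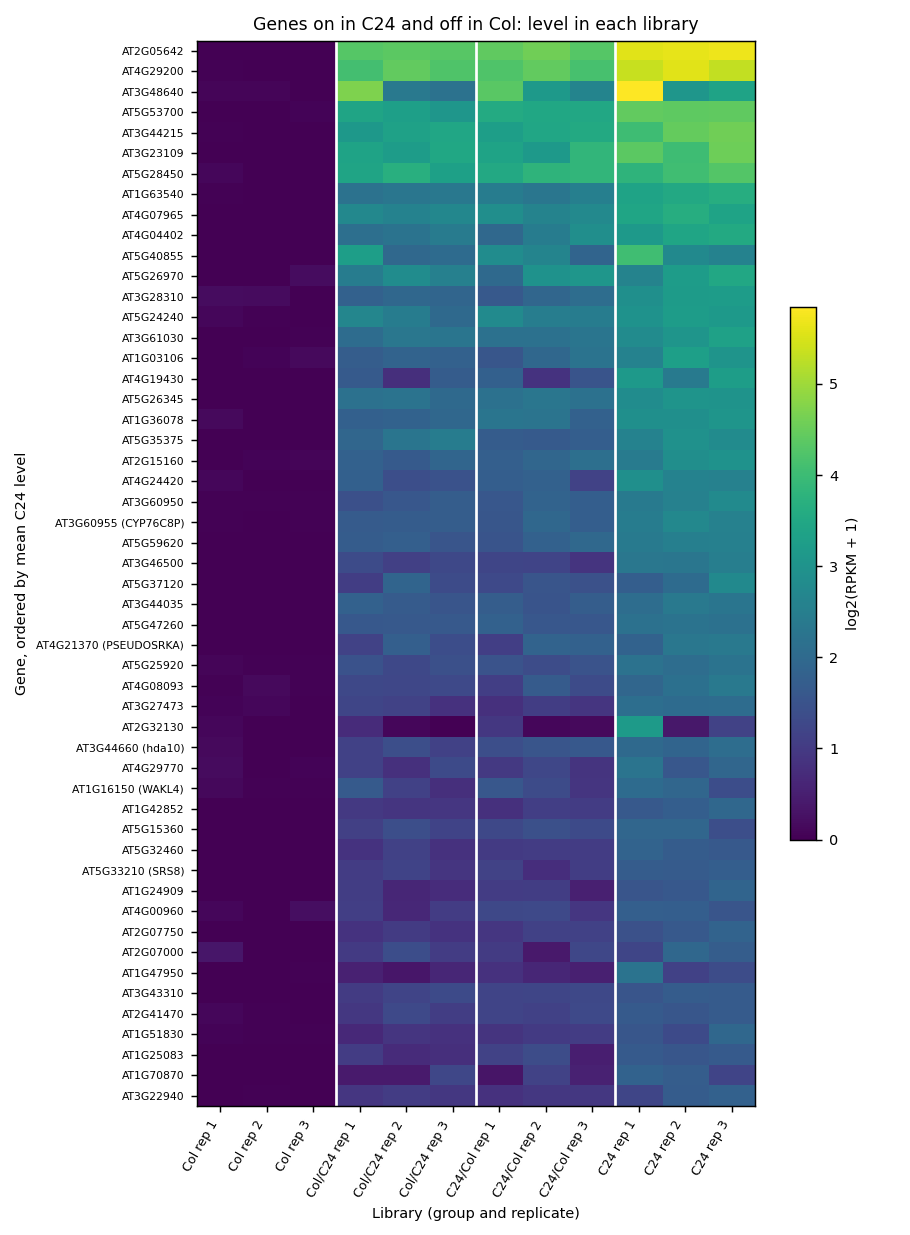
Level of the 52 members (rows, ordered by mean C24 level) in the 12 libraries (columns, 3 per group) as log2(RPKM + 1), shown by colour. The Col columns are dark throughout, the C24 columns are the brightest for most rows, and the hybrid columns lie between them.

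Just inside the C24 threshold stood AT3G22940, an F-box associated gene, at 2.04 RPKM and AT1G70870, a polyketide cyclase-like gene, at 2.06 RPKM. Just outside it stood AT2G13400 and AT1G32225, both at 1.95 RPKM in C24 and listed at 0 in Col. Just inside the Col threshold stood AT2G07000, of unknown function, at 0.09 RPKM and AT3G28310 at 0.0867 RPKM, and just outside it AT1G04660 at 0.10 RPKM and AT5G45220 at 0.103 RPKM. The 0.09 RPKM of AT2G07000 came from 1 Col library at 0.27 RPKM. AT2G07000 overlaps HEN2 (8.40 to 10.68 RPKM in the 12 libraries) on the opposite strand, and whether reads were shared was not tested.

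By annotation 39 of the 52 members (75%) were protein-coding, against 98.0% of all identifiers that reached 2 RPKM in C24. Pseudogenes of either kind made up 13 members (25%), against 0.431% of these and 12.9% of all 32992 identifiers. A gene symbol was given for 5 members (9.62%), against 45.4%, and the 5 were WAKL4, CYP76C8P, PSEUDOSRKA, hda10 and SRS8. Genes annotated as uncharacterized or hypothetical made up 20 members (38.5%), against 5.19% and 17.5%. The members were also shorter, with a median exonic length of 1306.5 bp against 1810 bp. Distinct exons, pooled over all annotated transcript forms of a gene, had a median of 4.5 against 7. This count can also rise with the number of annotated forms. The 103 genes with the reverse pattern, on in Col and off in C24 by the same thresholds, were 24.3% pseudogenes and 43.7% uncharacterized, so these features were shared by both sets.

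Among the members with an annotated class were 3 protein kinases, 3 RNA or nucleic acid binding proteins, 1 disease resistance gene of the NLR class (intracellular immune receptors with a nucleotide-binding and a leucine-rich repeat domain), 1 MADS-box gene, 1 F-box associated gene and 1 zinc finger gene. The kinases were 5.77% of the members, against 3.62% of identifiers that reached 2 RPKM in C24, and the nucleic acid binding proteins 5.77% against 1.5%. The resistance gene and the MADS-box gene were 1.92% of the members each, against 0.514% and 0.159% of those identifiers, and the F-box associated and zinc finger genes 1.92% each, against 0.881% and 2.38%. No member was annotated as a UDP-glycosyltransferase, defensin, lectin, protease inhibitor, terpene enzyme, glutathione transferase, MYB factor or transposable element, classes that each made up 0.0317% to 0.514% of those identifiers. Chromosomes 1 to 5 held 10, 6, 13, 9 and 14 members (19.2%, 11.5%, 25%, 17.3% and 26.9%), against 26.1%, 15.1%, 19.9%, 15.0% and 23.3% of those identifiers. Another member lay within 100000 bp of 7 members (13.5%), against 7.47% of all identifiers with a member in that window. A gene of the reverse pattern lay within that window of 9 members (17.3%), against 14% of all identifiers.

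The 3 nucleic acid binding genes ranked 1, 4 and 22 by C24 level. AT2G05642, an OB-fold protein (a fold that binds single-stranded nucleic acids) on chr2:2098087-2101167, stood at 46.82, 48.42 and 50.74 RPKM in C24 and was listed at 0 in the 3 Col libraries. It stood at 18.82, 19.61 and 19.15 RPKM in Col/C24 and at 20.33, 22.69 and 18.66 RPKM in C24/Col. All 6 hybrid libraries lay far below the lowest C24 library and far above Col, and the hybrids overlapped each other. The hybrid level was 39.4% ± 0.815 of the C24 level in Col/C24 and 42.3% ± 4.16 in C24/Col (SD, n = 3). AT3G60920, the closest other protein to AT2G05642 (93.5% identity, but over 20.3% of its length), was at 0.823 RPKM in C24 and 0.00333 RPKM in Col.

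AT5G53700, an RNA recognition motif protein, stood at 20.63, 19.95 and 20.32 RPKM in C24, at 9.65, 8.85 and 7.42 RPKM in Col/C24 and at 10.87, 10.17 and 10.32 RPKM in C24/Col. Its Col values were 0, 0 and 0.04 RPKM. The 3 C24 libraries were close together, and every C24/Col library was above every Col/C24 library, at shares of 51.5% and 42.6%. The difference between the hybrids did not pass the test given below. AT4G24420, the other RNA recognition motif protein, stood lower at 5.5 ± 0.883 RPKM in C24 (SD, n = 3), with shares of 35.5% in Col/C24 and 36.9% in C24/Col.

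The second highest member was AT4G29200, annotated as a beta-galactosidase related protein, at 39.86, 46.48 and 38.32 RPKM in C24. Its hybrid libraries stood at 16.14, 20.64 and 17.71 RPKM in Col/C24 and at 17.71, 20.54 and 16.66 RPKM in C24/Col, with 1 Col library at 0.03 RPKM and the others at 0. The hybrids overlapped and both were at 43.7% to 44.0% of the C24 level. The pseudogene AT3G44215 stood at 15.31, 21.17 and 22.83 RPKM in C24, and the short transcribed pseudogene AT3G23109 at 19.66, 15.31 and 22.46 RPKM. Their shares were 45.3% and 48.8% in Col/C24 and 49.5% and 53.2% in C24/Col. Pseudogenes, although they no longer code for the protein of their parent gene, thus included some of the highest values of the set.

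AT5G28450, annotated as a chlorophyll a-b binding protein of the light-harvesting family, stood at 12.99, 15.52 and 18.49 RPKM in C24 and at 0.08, 0 and 0 RPKM in Col. It stood at 9.68, 11.79 and 8.92 RPKM in Col/C24 and at 10.49, 12.85 and 13.31 RPKM in C24/Col. The shares were 64.7% ± 9.49 in Col/C24, where only AT5G26970 at 65.3% was higher, and 78.0% ± 9.66 in C24/Col, the highest of the 52 members (SD, n = 3). The highest C24/Col library was above the lowest C24 library. The protein is 95.2% identical to LHCA2, an antenna protein of photosystem I, over 59.5% of its length. LHCA2 itself stood at a mean of 3167 RPKM in Col, 3722 RPKM in C24, 3737 RPKM in Col/C24 and 3773 RPKM in C24/Col, so the parent listed near 0 for AT5G28450 had a high level of LHCA2. Whether reads of LHCA2 add to AT5G28450 was not tested.

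AT1G63540, a hydroxyproline-rich glycoprotein (a class known from the cell wall), stood at 10.4 RPKM in C24 and at 36.9% of it in Col/C24 and 41.8% in C24/Col. AT4G04402, named a two-component phosphorelay mediator, the class that passes phosphate from cytokinin receptors to response regulators, stood at 9.47 RPKM in C24, with shares of 40.5% and 48.7%. Its closest relative AHP2 was at 44.2 RPKM in Col and 40.1 RPKM in C24. AT5G24240, similar to phosphatidylinositol 4-kinases, stood at 6.93, 8.43 and 7.77 RPKM in C24 and at 55.9% and 64.7% of that level in the hybrids. The uncharacterized genes AT4G07965 and AT5G26970 stood at 10.2 and 7.93 RPKM in C24 and had shares of 53.1% and 65.3% in Col/C24 and 56.2% and 72.7% in C24/Col. In AT5G26970 the C24/Col libraries spread widely (2.98, 6.94 and 7.37 RPKM), as did those of C24 (5.09, 8.42 and 10.27 RPKM).

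At the low end of the shares stood AT4G19430, an uncharacterized gene without introns. It was at 7.75, 4.22 and 8.46 RPKM in C24, 2.15, 0.73 and 2.26 RPKM in Col/C24 and 2.45, 0.80 and 1.88 RPKM in C24/Col, and was listed at 0 in all Col libraries. Replicate 2 was the lowest in each of the 3 expressing groups, and no hybrid library reached the lowest C24 library. The shares were 25.2% ± 12.5 in Col/C24 and 25.1% ± 12.3 in C24/Col (SD, n = 3). AT3G28310 (DUF677, a domain of unknown function) followed at 34.9% and 35.1%, and the uncharacterized AT1G03106 at 35.5% and 40.4%. Below 5 RPKM in C24, AT3G46500, a 2-oxoglutarate and iron dependent oxygenase, was at 32.4% and 27.5%, and AT3G27473, a C1 domain protein, at 34.5% and 28.1%, both chosen after their values were seen.

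Over the 52 members the median share of the C24 level came to 44.3% in Col/C24 (range 7.53% to 65.3%, quartiles 38.2% and 50.7%) and 47.8% in C24/Col (range 11.6% to 78.0%, quartiles 41.5% and 54.6%). The medians of the single libraries were 43.3%, 43.5% and 42.0% in Col/C24 and 42.5%, 49.8% and 46.4% in C24/Col, so the hybrids overlapped. Between 40% and 60% of the C24 level lay 31 members in Col/C24 and 33 in C24/Col, while 39 and 32 members were under 50%. The genes with the reverse pattern had median shares of the Col level of 47.1% in Col/C24 and 49.5% in C24/Col. Rescaling the libraries by median-of-ratios size factors changed the medians to 46.6% and 47.6%. Ribosomal RNA took 1.22% to 4.48% of the summed values in Col/C24, 0.316% to 1.18% in C24/Col and 0.231% to 0.441% in C24. Leaving out the 4 libraries above 2% left 1 Col/C24 library, with a median share of 43.5%, and removed no C24 or C24/Col library. The part of ribosomal RNA in the shares was not tested further. The C24 threshold acted on the denominator of the share, and among the 24 members of at least 5 RPKM in C24, farther from it, the medians were 44.3% and 48.4%.

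**Figure D2:**
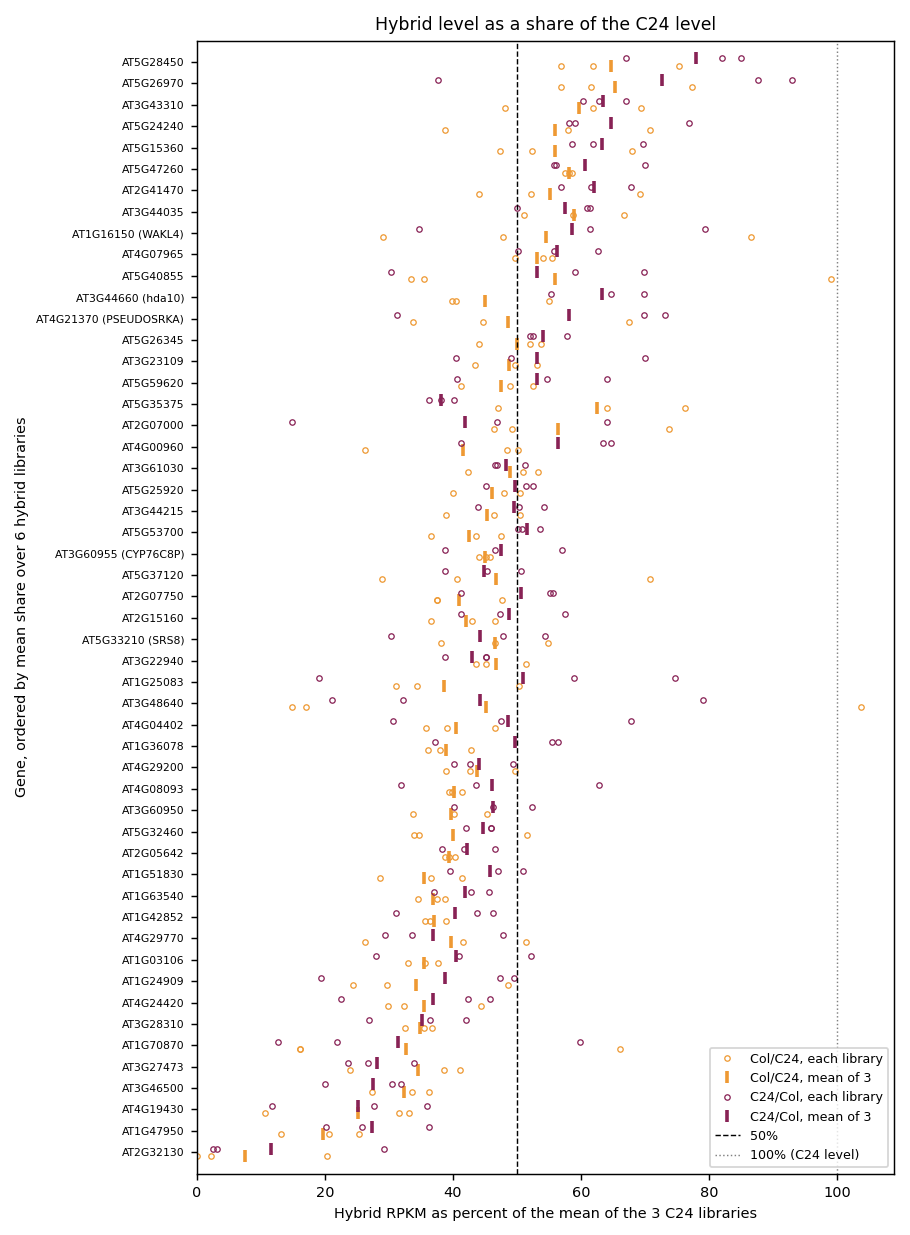
Hybrid RPKM as a percent of the mean C24 level for each member (rows, ordered by the mean over 6 hybrid libraries), with open circles for single libraries and bars for the mean of 3 libraries. Most bars lie between 40% and 60%, AT5G28450 is at the top with 64.7% and 78.0%, and AT2G32130 is at the bottom with 7.53% and 11.6%.

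**Figure D3:**
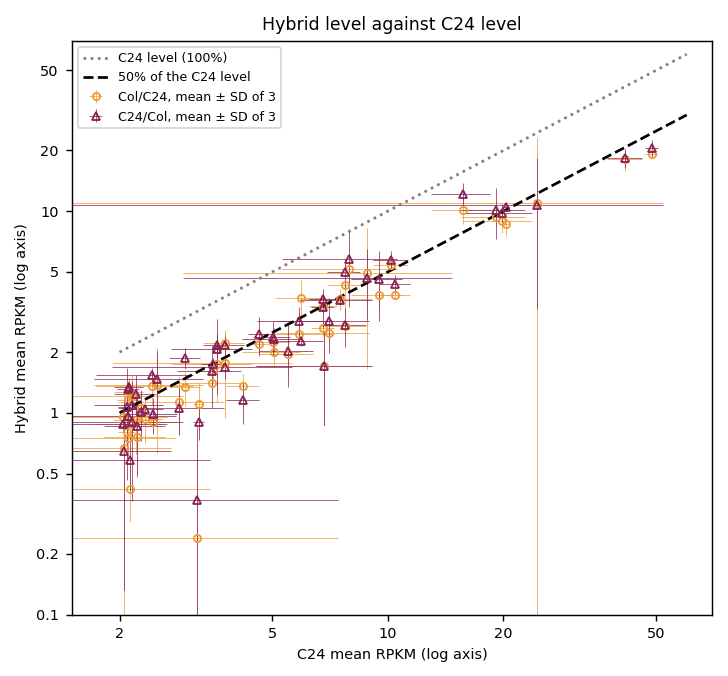
Mean hybrid RPKM against mean C24 RPKM of the 52 members on log axes, with SD bars over 3 libraries, cut at the axis limits where the SD exceeds the mean. Most points of both hybrids lie near the dashed line at 50% of the C24 level, from 2.04 to 48.66 RPKM in C24, and none reaches the dotted line at 100%.

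Every Col/C24 library was above every Col library for 51 of 52 members, and every C24/Col library was so for all 52, against 6.23% and 12% of the 17927 genes tested. The exception was AT2G32130, listed at 0 in Col/C24 replicate 3 and at 0.07 RPKM in Col replicate 1. Every library was below every C24 library for 43 members in each hybrid, against 15.4% of genes in Col/C24 and 9.4% in C24/Col. In limma on log2(RPKM + 1), with 51 of the 52 members tested and p-values adjusted by Benjamini and Hochberg over all 17927 genes, 42 members were lower than C24 in Col/C24 and 38 in C24/Col. Of all genes 3.31% and 1.89% were lower in these comparisons. With the replicate number as a block 47 and 45 members were lower, against 14.2% and 6.89% of all genes. The rule took members with low Col values, so it favoured hybrid libraries above Col. Because the C24 libraries also chose the members and serve both comparisons with C24, all counts of members in this paragraph describe the set and are no independent evidence.

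For the same reason single genes are given against C24 by size alone. AT2G05642 differed from C24 by -1.3 on the log2 scale in Col/C24 (SE 0.08) and by -1.21 in the reciprocal hybrid (SE 0.08), and AT4G19430 by -1.53 in both (SE 0.31). For AT5G28450 the differences were -0.58 and -0.33 in the same order (SE 0.14 each). The 9 tested members that did not pass in Col/C24 did not pass in C24/Col either, and among them were AT3G48640, AT5G40855 and AT5G26970. Without the 4 libraries above 2% ribosomal RNA, which leaves 1 Col and 1 Col/C24 library, 6 members passed in Col/C24 and 20 in C24/Col.

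Whether the hybrids departed from additive expression was asked by comparing them with mid-parent profiles, each averaged from a Col and a C24 library that carry 1 replicate number. In limma 0 of 51 members differed from the mid-parent in either hybrid, where 0.0335% of all genes did in Col/C24 and 0.0502% in C24/Col. At an unadjusted p below 0.05 there were 8 of 51 members in Col/C24 and 6 of 51 in C24/Col. Both are higher shares than those of all genes, 1587 and 1089 of the 17927 tested. The parental values in these profiles also chose the members, so these counts and the values of single members against the mid-parent are a description. The median difference of the members on the log2 scale was -0.12 for Col/C24 and -0.03 for C24/Col, beside -0.09 and -0.00 over all genes tested. With the replicate number as a block, 4 members were lower in Col/C24, where 2.6% of all genes were lower and 2.9% differed in either direction. In C24/Col 1 member was higher and 1 lower with the block, where 0.731% of all genes were higher, 0.842% lower and 1.57% differed in either direction.

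The 4 lower members in Col/C24 with the block were AT4G19430, by -0.72 on the log2 scale (SE 0.10), AT3G28310 by -0.40 (SE 0.09), AT1G63540 by -0.36 (SE 0.08) and AT2G05642 by -0.33 (SE 0.07). In C24/Col AT4G19430 was lower by -0.72 (SE 0.10) and AT5G28450 was higher by 0.58 (SE 0.11). AT4G19430 was under its same-number mid-parent in all 6 hybrid libraries, with 17.3% to 31.6% of the C24 library of the same number. When size factors were used together with the block, an alternative added after the data had been seen, AT4G19430 alone was lower in Col/C24. In C24/Col AT5G28450 was then higher and AT4G19430 and AT3G28310 lower.

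Between the reciprocal hybrids 0 of 51 members differed in limma with or without the block, and 0% of all genes did. The difference itself used no library of the rule, but the Col and C24 libraries entered the estimate of spread. In a fit of the 6 hybrid libraries alone 0 of 51 members differed as well. There 533 of the 17927 genes tested had an unadjusted p below 0.05, and 3 of these were members. In the fit of all 12 libraries without the block, 745 of the 17927 genes tested had an unadjusted p below 0.05. Among them were 3 members, each with an adjusted p of 0.94. These were AT5G35375, of unknown function, with a difference of C24/Col minus Col/C24 of -0.51 on the log2 scale (95% interval -0.81 to -0.21), hda10, a histone deacetylase gene, at 0.30 (0.07 to 0.54) and AT5G53700 at 0.26 (0.06 to 0.45). AT5G35375 stood at 2.79, 3.80 and 4.52 RPKM in Col/C24 and at 2.26, 2.15 and 2.38 RPKM in C24/Col, without overlap. hda10 stood at 1.18, 1.63 and 1.20 RPKM in Col/C24 and at 1.64, 1.92 and 2.07 RPKM in C24/Col, so its groups nearly touched. Both genes were picked by their unadjusted p, so a lack of overlap is no further evidence of a difference. How many of all genes lacked overlap between the hybrids was not counted. A higher share in C24/Col was seen in 38 of 52 members, with a median difference of 4.10 percentage points. The median difference on the log2 scale was 0.08 over the members and 0.08 over all genes tested, and it was 0.02 and 0.00 after rescaling by size factors.

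In 4 members the highest C24 library was over 3 times the lowest, and in each of them it was replicate 1. AT3G48640, an uncharacterized gene, stood at 56.40, 7.41 and 9.47 RPKM in C24, at 25.34, 4.15 and 3.63 RPKM in Col/C24 and at 19.31, 7.87 and 5.17 RPKM in C24/Col. Replicate 1 was the highest in all 3 expressing groups, and its Col values were 0.06, 0.05 and 0 RPKM. The adjacent transcribed pseudogene AT3G48650, 2011 bp away on the other strand, averaged 9.26 ± 11.5 RPKM in C24 and 1.0 ± 1.14 RPKM in Col (SD, n = 3).

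AT5G40855, which overlaps UPM1 on the opposite strand, stood at 15.63, 5.81 and 5.05 RPKM in C24, at 8.75, 2.95 and 3.13 RPKM in Col/C24 and at 6.16, 5.22 and 2.68 RPKM in C24/Col. It was listed at 0 in all Col libraries, while UPM1, a gene of siroheme synthesis, stood at 25.02 to 36.19 RPKM in the 12 libraries. AT2G32130 stood at 8.05, 0.29 and 1.22 RPKM in C24 and met the C24 threshold through replicate 1, with no hybrid library above 0.93 RPKM. It did not reach 1 RPKM in 3 libraries and was not tested. AT1G47950, a pseudogene, stood at 3.64, 1.18 and 1.56 RPKM in C24 and at no more than 0.77 RPKM in the hybrids, so that its place among the tested genes rests on the C24 libraries. AT1G47950 overlaps C/VIF1 (3.92 to 8.23 RPKM in the 12 libraries) on the same strand, and whether reads were shared was not tested. The shares of these 4 genes, from 7.53% to 56.0%, are relative to a C24 mean that was raised by 1 library.

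**Figure D4:**
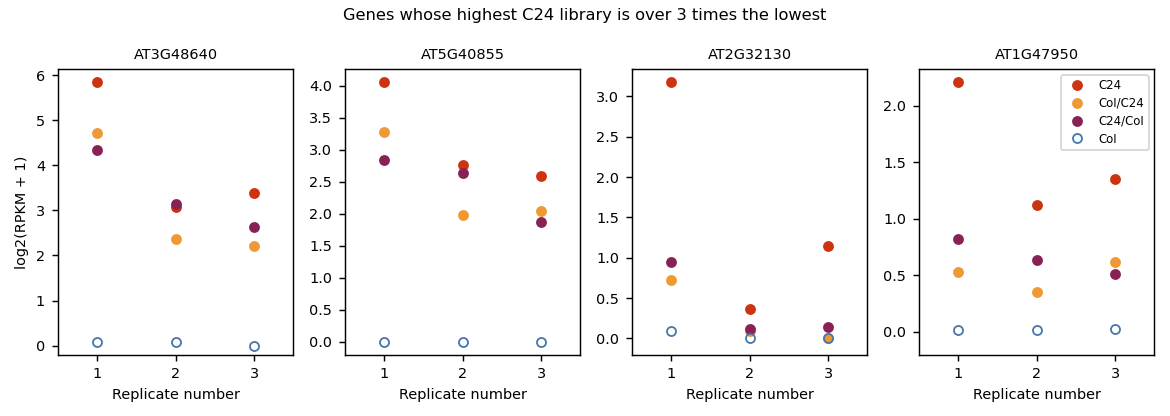
Level of the 4 members with the widest spread in C24, as log2(RPKM + 1) by replicate number, with 1 point per library and colours for the 4 groups. Replicate 1 of C24 is the highest point in each panel, and the Col points are at or near 0.

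In 4 regions a member lay near genes with the opposite pattern, which were of its own family for WAKL4 and AT3G28310. The regions and the genes given for each were chosen after their values were seen, and other genes lie between them. WAKL4 (chr1:5532298-5535060), a wall-associated kinase-like gene, belongs to a family of receptor kinases that span the plasma membrane and contact the cell wall. WAKL4 lies in a tandem array of WAKL genes. This gene stood at 3.10, 2.81 and 1.61 RPKM in C24, 0.09, 0.02 and 0.02 RPKM in Col, 2.17, 1.20 and 0.73 RPKM in Col/C24 and 1.99, 1.54 and 0.87 RPKM in C24/Col. The hybrids overlapped C24, and replicate 1 was the highest in all 4 groups. WAKL2 from the same array, with 82.5% protein and 87.7% coding sequence identity, had 0 listed for each C24 library and stood at 7.33, 1.8 and 0.92 RPKM in Col. In the hybrids WAKL2 stood at 5.85, 0.40 and 0.29 RPKM in Col/C24 and at 6.41, 0.71 and 0.37 RPKM in C24/Col, so that both genes were detected in both hybrids. WAKL6 was present in all 12 libraries, from 2.05 to 6.04 RPKM, while WAKL1, WAKL3 and WAKL5 did not exceed 0.2 RPKM.

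In a stretch of chromosome 3 the C2 domain genes AT3G60950 and AT3G61030, whose domain binds calcium and lipids, were both members and share 98.8% of their aligned coding bases, so their reads may be divided between them. AT3G60950 stood at 4.24, 4.91 and 5.97 RPKM in C24 and AT3G61030 at 6.06, 7.25 and 9.23 RPKM, with shares of 39.7% and 48.8% in Col/C24 and 46.2% and 48.2% in C24/Col. The P450 pseudogene CYP76C8P, 129 bp from AT3G60950 on the other strand, stood at 4.51, 5.59 and 4.93 RPKM in C24, with shares of 45.0% and 47.4%. Among the genes chosen from the same stretch 4 had the opposite order. AT3G60960 stood at 2.98 ± 0.268 RPKM in Col and 0.197 ± 0.0666 RPKM in C24, and AT3G60965 at 1.46 ± 0.211 and 0.00667 ± 0.0115 RPKM (SD, n = 3). AT3G60940 and AT3G61028 stood at 1.01 and 1.46 RPKM in Col and at 0.0433 and 0.0967 RPKM in C24.

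Differences in both directions were also found in a block on chromosome 1 that holds repeated copies of a glutamine amidotransferase gene (a class that takes ammonia from glutamine) and of LpxC, named for an enzyme of lipid A synthesis in bacteria. The members AT1G24909 and AT1G25083 are identical over all 669 coding bases and over the 250 bases before them, so how their reads were divided cannot be told. They stood at 1.93, 2.05 and 2.68 RPKM and at 2.16, 1.97 and 2.14 RPKM in C24, and were listed at 0 in all Col libraries. AT1G25155 and AT1G24807, identical over the same 669 bases but not members, stood at 1.94 and 0.607 RPKM in C24 and were also listed at 0 in Col. LpxC2 and LpxC3 from the same block stood at 82.8 and 14.1 RPKM in Col and at 0.01 and 0.19 RPKM in C24. LpxC2 averaged 37.6 RPKM over the Col/C24 libraries and 36.8 RPKM over those of C24/Col.

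The DUF677 member AT3G28310 stood at 6.54, 8.24 and 8.4 RPKM in C24 and at 0.14, 0.12 and 0 RPKM in Col. Its neighbour AT3G28300, 1 of 2 AT14A genes, which are known for a stretch similar to integrins, stood at 14.0 ± 4.10 RPKM in Col and 0.15 ± 0.05 RPKM in C24 (SD, n = 3). AT3G28290, the other AT14A gene, stood at 15.1 RPKM in Col and 0.23 RPKM in C24. A further DUF677 gene, AT3G28270, followed the member, with 1.8 RPKM in Col and 41.2 RPKM in C24. Within 1 cluster the family therefore held levels in both directions.

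**Figure D5:**
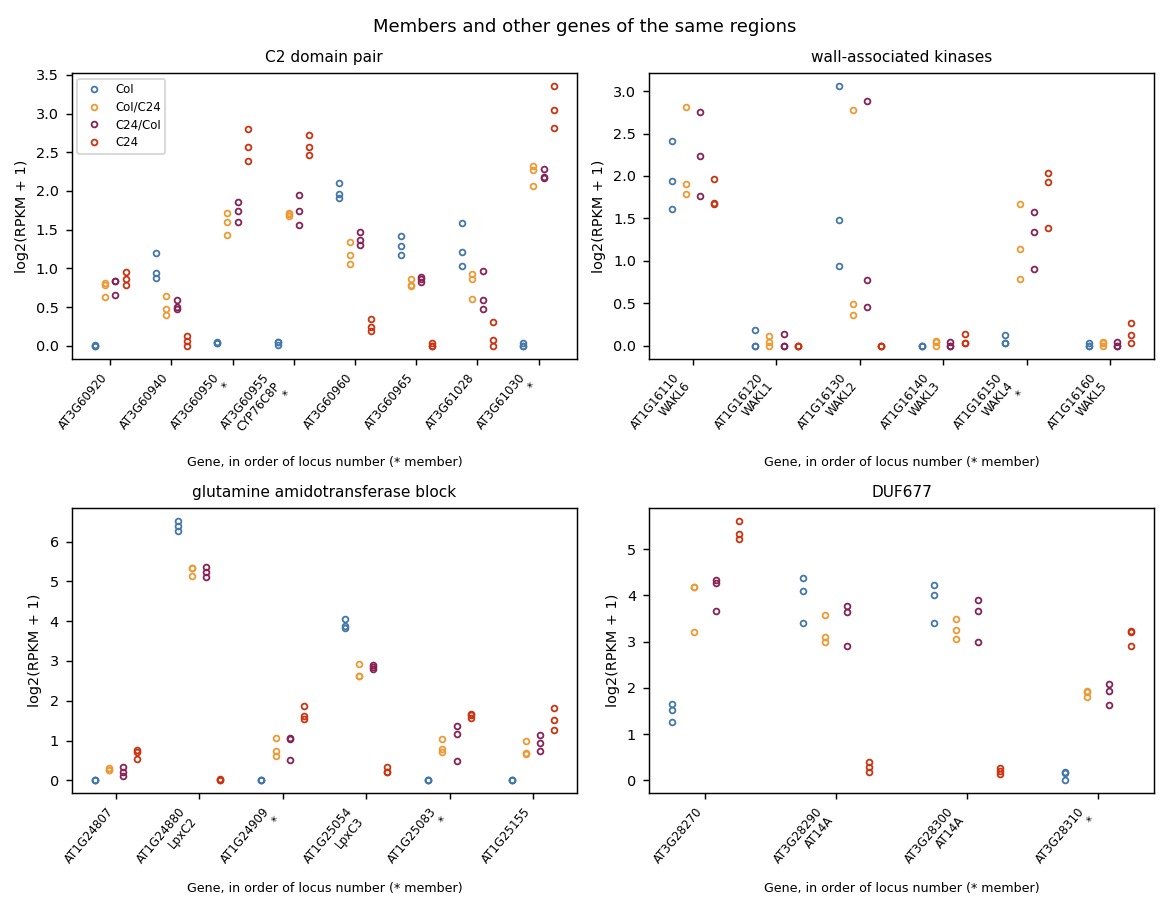
Level of members (starred) and other genes of the same 4 regions as log2(RPKM + 1), with 1 point per library, the genes in order of locus number and colours for the 4 groups. Regions and genes were chosen after their values were seen. In each region at least 1 member is high in C24 and near 0 in Col, at least 1 other gene is high in Col and near 0 in C24, and the hybrid points lie at levels above 0 for both.

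The genes next to members were compared between the parents. Neighbours that are themselves members were not counted, so the counts are not independent of the rule. Of 101 neighbours that are not members 41 could be tested, and in limma 8 were higher and 4 lower in C24, 29.3% against 22.7% of all genes. With the replicate block 17 were higher and 6 lower, 56.1% against 41.8% of all genes. Among those called, AT5G59630 passed the filter through C24 libraries alone and AT3G61028 through Col libraries alone, so the filter favoured both calls. AT5G47250 lies 525 bp from the member AT5G47260, and both are annotated as NLR disease resistance genes. AT5G47250 stood at 0.63 ± 0.0173 RPKM in Col and 3.41 ± 0.183 RPKM in C24 (SD, n = 3), a difference of 1.43 on the log2 scale (SE 0.10, adjusted p = 1.6e-06). The member AT5G47260 stood at 3.53, 3.71 and 3.51 RPKM in C24, was listed at 0 in Col, and was at 58.0% of the C24 level in Col/C24 and 60.7% in C24/Col.

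The oxygenase AT3G46490, 560 bp from the member AT3G46500 and 74.9% identical to it, stood at 5.90 RPKM in Col and 13.3 RPKM in C24, a difference of 1.06 (SE 0.10, adjusted p = 2.8e-05). Beside the pseudogene AT5G59620, the pseudogene AT5G59630 was listed at 0 in Col and stood at 1.33 RPKM in C24. It averaged 0.53 RPKM in Col/C24 and 0.66 RPKM in C24/Col. Beside SRS8 the pseudogene AT5G33207 was listed at 0 in Col and stood at 1.79 RPKM in C24. SRS8 itself, of a family of RING-like zinc finger proteins and annotated as a putative pseudogene, stood at 2.26, 2.20 and 2.38 RPKM in C24, with shares of 46.5% and 44.2%. In the other direction SYP41, a syntaxin of the trans-Golgi network beside AT5G26970, stood at 11.2 ± 0.772 RPKM in Col and 4.83 ± 0.550 RPKM in C24 (SD, n = 3), a difference of -1.07 (SE 0.11, adjusted p = 3.3e-05). Counting by strand is not stated, so reads of overlapping or adjacent genes may be shared.

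The other members of named classes were near the C24 threshold. The kinase AT4G00960 stood at 2.40, 2.34 and 1.89 RPKM in C24, with shares of 41.6% in Col/C24 and 56.4% in C24/Col, and the leucine-rich repeat kinase AT1G51830 at 1.96, 1.48 and 2.87 RPKM, with shares of 35.5% and 45.8%. The MADS-box gene AT2G41470, of the class of transcription factors that includes floral organ regulators, stood at 2.16, 1.95 and 2.22 RPKM and at 55.1% and 62.1% of that level in the hybrids. The RNA helicase gene AT2G07750 stood at 1.74, 2.12 and 2.62 RPKM in C24 with 0.01 RPKM in 1 Col library, while its close copy AT1G63250, 95.8% identical in protein, stood at 1.67 RPKM in Col and 2.12 RPKM in C24. PSEUDOSRKA, the remnant of the receptor kinase by which self-incompatible relatives reject their own pollen, stood at 2.6, 4.02 and 4.13 RPKM in C24 and was listed at 0 in Col, with shares of 48.7% and 58.0%. AT4G29770, annotated as a target of trans-acting small RNAs, stood at 3.77, 2.0 and 2.82 RPKM in C24 and at 39.7% and 36.9% of that level in the hybrids. PSEUDOSRKA and AT4G29770 were named after their values were seen.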

How the data were processed

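RNA was measured by sequencing of oligo(dT)-selected RNA in 12 libraries, 3 in each of the groups Col, C24, Col/C24 and C24/Col. Reads were aligned with TopHat to TAIR10 per the submitters' processing notes, and no source used here names the counting tool or annotation. Deposited by the authors was 1 value per gene and library without a header, read from the values as RPKM, and no count was available, so limma replaced the planned count test. Depth was estimated from the spacing of low values in genes of 150 to 600 bp, of which 72.7% to 78.2% were whole within 0.15 reads. Of 33559 identifiers, 567 that occur more than once were left out. Genes that reached 1 RPKM in 3 or more libraries (17927) were fitted as log2(RPKM + 1), a scale that understates changes of low genes, with R 4.3.3 and limma 3.58.1 (moderated variances with a trend, adjusted p threshold 0.05). All 12 libraries were fitted together, and 3 mid-parent profiles were fitted with the 6 hybrid libraries. The scripts were tested on simulated data. Proteins were compared with blastp at an e-value limit of 1e-05. Python 3.11.15, pandas 2.3.3 and numpy 2.4.6 were used for the rest.

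The members, gene lists and tests were chosen with earlier results of these data known. The genes named are the 12 highest in C24, the 4 lowest and 4 highest shares among members of at least 5 RPKM in C24, members passing a test against the mid-parent or between hybrids, those closest to a threshold, adjacent members, up to 3 per class and those with a close paralog (at least 90% identity over 80% of the length). Other genes were named after their values were seen. Deviations from group means correlated at 0.538 to 0.825 over 18 pairs of libraries with the same replicate number and at -0.649 to 0.187 over 36 pairs with different numbers, so by the data the numbers pair the samples; the labels state no shared batch. Nothing states that replicates were separate plants, and the p-values measure spread between these libraries only. Alternatives covered the pseudocount, the filter, size factors, the replicate block, each library left out, replicate 1 left out, the 4 libraries above 2% ribosomal RNA left out and other thresholds for membership.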

Additional observations from a re-analysis of the deposited data

How the results depend on the processing

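Counts of members differing from the mid-parent were 0 in each hybrid under every alternative without the replicate block, including each library left out. With the block they were 4 in Col/C24 and 2 in C24/Col, and with the block and size factors, chosen after seeing the data, 1 and 3. The block changed no call between the hybrids, where the count was 0 under every alternative run. Members lower than C24 numbered 32 to 47 in Col/C24 and 27 to 45 in C24/Col, except without the 4 libraries above 2% ribosomal RNA, which gave 6 and 20. That setting leaves 1 library of Col and of Col/C24, assumed to vary like the other groups. Neighbours differing between the parents numbered 12, against 23 with the replicate block and 24 with the block and size factors. Without the filter, with all 101 tested, 11 were higher and 7 lower in C24. With single libraries left out the count moved both ways, such as 6 higher and 4 lower without C24 replicate 3 and 8 higher and 5 lower without Col replicate 3. The median share in Col/C24 was 44.3%, against 46.6% with size factors and 42.3% to 45.2% with each library left out, and in C24/Col it was 47.8%, against 45.0% to 51.1% with each library left out, the highest without C24 replicate 3. The set held 52 genes, against 93 with a C24 mean of at least 1 RPKM, 24 with at least 5 RPKM and 31 when each library had to pass. No direction of a called value reversed. Depth limits what off in Col means to 0.0744 to 0.128 RPKM for 3 reads on 1500 bp, and what a hybrid share means near the C24 threshold.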
